A study of Homo sapiens with 6 samples.

Results

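The last 150 nucleotides (nt) of an mRNA before its poly(A) tail were examined in 536 mRNAs of 536 genes, of 15739 RefSeq transcripts listed in the data and 1065 RefSeq mRNAs that passed a minimum of 1 stop per nucleotide in each of the 4 DMS libraries. Each window ended at the annotated 3′ end of the coding transcript matched to the RefSeq entry on hg19 and lay whole, more than 60 nt past the stop codon, within the 3′ UTR. A further 193 matched coding transcripts were left out because their 3′ end could not be matched to the base numbers that the deposited values imply, and 191 because the 3′ UTR was too short. All 536 windows lay in the last exon, in 3′ UTRs of 210 to 5458 nt (median 630 nt).

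The RNA was poly(A)+ RNA of U2OS, a human osteosarcoma cell line, with 1 library for each of 6 conditions and no replicates. In 2 libraries the RNA carried no DMS and was reverse transcribed in 150 mM of a cation, labelled K+ in one and Na+ in the other. In 2 libraries the extracted RNA was refolded and treated with DMS in 150 mM K+ or Li+ (in vitro). In 2 libraries DMS was applied to living cells, either unstressed or starved in HBSS, a salt solution without serum or amino acids, for 2 h; all 4 DMS libraries were reverse transcribed in K+. Among the mesenchymal genes examined, VIM had the most stops in every library (45404 to 125127) and TPM1 the fewest (773 to 4581). Among epithelial and blood genes, KRT19, HBA1 and CD3E had no listed stop. EPCAM had 9 to 67, CDH1 0 to 7 and PTPRC 0 to 5. The epithelial keratin KRT8 had 2318 to 7792, more than TPM1 in every library. With 1 library per condition no test between conditions was possible, and every interval below covers counting error or the spread over mRNAs only.

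Reverse transcriptase (RT) reads an RNA from its 3′ side and stops at obstacles. Dimethyl sulfate (DMS) methylates the Watson-Crick face of unpaired A and C, which blocks RT. It also methylates G, at a position that does not by itself block RT. G-quadruplexes, stacks of guanine tetrads held by K+, block RT without any chemical. The end of an mRNA is set by the polyadenylation signal, most often AAUAAA and next AUUAAA, which the cleavage and polyadenylation complex reads in the nucleus before cutting a short distance downstream and adding the poly(A) tail. In the cytoplasm the tail is bound by poly(A)-binding proteins.

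AAUAAA started 10 to 40 nt before the end in 356 of the 536 windows, AUUAAA without AAUAAA in 77, and neither in 103. The first base of the signal lay at a median of 24 nt before the end for AAUAAA, with the last base of the mRNA counted as 1. Over the whole 150 nt, AAUAAA occurred in 74.3% of the windows and in 13.2% of 2458 windows of the same length inside the same 3′ UTRs. The AU-rich element core AUUUA occurred in 29.5% and 28.7%, and UGUA, a sequence bound by cleavage factor I (all searched on the mRNA strand), in 66.98% and 57.8%. The last 60 nt were 34.7% A, against 27.9% A in the interior windows. The 8 windows with the most in vivo stops carried these signals, shown because the values around the polyadenylation signal, given further on, are placed relative to them. They are given 5′ to 3′ on the mRNA with the hexamer in capitals and with the position on GRCh37 (hg19).
PTMA (chr2:232578200-232578229, plus strand): auguuguccaacAAUAAAcaggaauuuuau
TMSB4X (chrX:12995313-12995342, plus strand): uuuuuaauaugcaAAUAAAaaguuuaaaaa
VIM (chr10:17279560-17279589, plus strand): ugguucugcuucAAUAAAucuuuggaaaaa
H2AZ1 (chr4:100869247-100869276, minus strand): guggauaaguucAAUAAAggucauauccca
HSPA8 (chr11:122928210-122928239, minus strand): ugcaaugucuuaAAUAAAacuauuuaaaau
ENO1 (chr1:8921071-8921100, minus strand): uuuugugcucaaAAUAAAaagccucaguga
ACTB (chr7:5566787-5566816, minus strand): ugagaccaguugAAUAAAagugcacaccuu
HSP90AB1 (chr6:44221583-44221612, plus strand): uaaaguaugcaaAAUAAAgaauaugccguu

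The 6 libraries held between 382522 (in vitro K+) and 671357 (no DMS, labelled K+) stops in these windows, with 407428 in unstressed and 638121 in starved cells. The median window held 403 to 734 stops depending on the library. The files list positions with at least 3 stops only, so 32.4% (unstressed) to 49.8% (no DMS, labelled K+) of the 80400 window positions carried a value, and an unlisted position was counted as 0. Values are given as a ratio, the stop count at a position over the mean count of all nucleotides of the same base in the same transcript, so that a ratio of 1 is the transcript's own mean. Stops fell on A or C in 49.1% and 47.5% of cases without DMS, in 79.5% and 78.3% in vitro (K+ and Li+), in 84.8% in unstressed cells and in 75.8% in starved cells.

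How far the stops reached toward the tail was first measured without DMS. In the library labelled K+ the mean ratio was flat at 0.963 to 1.08 from 150 down to 41 nt before the end, was 0.978 at 31 to 40 nt and then fell to 0.614, 0.265 and 0.0187 over the 3 bins of 10 nt that end the mRNA. The library labelled Na+ followed the same course, with 0.0136 in the last 10 nt. Per mRNA, the density of stops (summed counts over summed same-base means) in the last 50 nt against nt 51 to 150 had a median log2 ratio of -0.86 over both libraries (95% interval of the median -0.99 to -0.73, n = 536). The last listed stop without DMS lay at a median of 23 nt before the end, within 40 nt in 402 mRNAs and beyond the whole window in 52. A low ratio in the last 30 nt is therefore a property of every library here, and comparisons between libraries are made bin by bin.

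**Figure D1:**
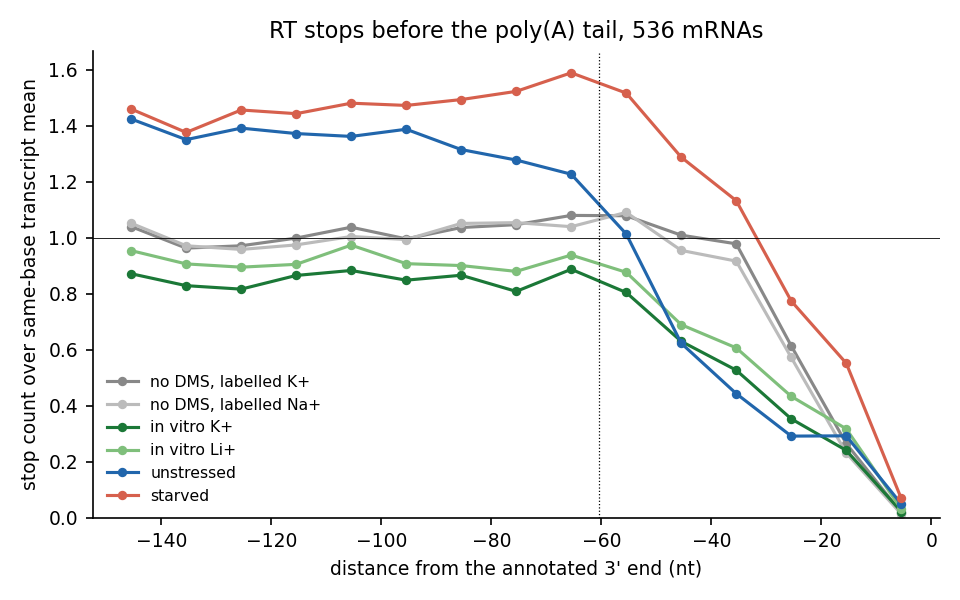
Mean over mRNAs of the ratio of stop counts to the same-base transcript mean (y axis) by distance from the annotated 3′ end in 10-nt bins (x axis), 1 line per library, over 536 mRNAs; the dotted line marks 60 nt. With each mRNA weighted equally, starved and unstressed cells lie at 1.35 to 1.48 from 150 to 91 nt and part over the last 60 nt, where unstressed cells drop to 0.443 and starved cells to 1.13 at 31 to 40 nt.

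Stops in starved over unstressed cells rose toward the mRNA end, up to 21 to 30 nt before it. With each mRNA weighted equally, from 150 to 91 nt before the end the mean ratio was 1.35 to 1.42 in unstressed and 1.38 to 1.48 in starved cells, so that the ratio between them was 1.02 to 1.09 per bin. It rose to 1.30 at 61 to 70 nt, 1.50 at 51 to 60 nt, 2.07 at 41 to 50 nt, 2.55 at 31 to 40 nt and 2.65 at 21 to 30 nt, and was 1.89 at 11 to 20 nt and 1.40 at 1 to 10 nt. At 21 to 30 nt, the usual place of the signal, the mean ratio was 0.292 in unstressed and 0.774 in starved cells, against 0.614 and 0.572 without DMS and 0.353 and 0.434 in vitro. With the counts of all mRNAs pooled, which weights them by depth, starved over unstressed was 0.747 to 0.81 per bin from 150 to 91 nt, 0.896 at 61 to 70 nt, 1.02 at 51 to 60 nt, 1.33 at 41 to 50 nt, 1.54 at 31 to 40 nt, 1.58 at 21 to 30 nt, 1.40 at 11 to 20 nt and 1.93 at 1 to 10 nt, where the ratios themselves were 0.0366 and 0.019. Upstream of 60 nt the pooled counts thus placed starved below unstressed cells and the mean over mRNAs did not. The median log2 ratio per mRNA was -0.17 (-0.26 to -0.09) at 121 to 150 nt, -0.11 (-0.21 to -0.05) at 91 to 120 nt, 0.06 (-0.01 to 0.15) at 61 to 90 nt and 0.63 (0.53 to 0.74) at 31 to 60 nt. Unstressed cells had the lowest mean ratio at 21 to 30 nt, but with pooled counts in vitro K+ (0.461) was below them (0.477).

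The mean ratio at 31 to 60 nt was higher in starved cells at all 4 bases. There the mean ratio in unstressed against starved cells was 0.89 against 1.44 at A, 0.96 against 1.61 at C, 0.80 against 1.62 at G and 0.33 against 0.90 at U. At 121 to 150 nt the same pairs were 1.65 and 1.54 at A, 1.68 and 1.57 at C, 1.6002 and 1.72 at G and 0.84 and 1.05 at U. In the last 30 nt the mean ratios were low but again higher in starved cells at each base, 0.256 against 0.521 at A, 0.179 against 0.411 at C, 0.149 against 0.400 at G and 0.197 against 0.446 at U. The median log2 ratio per mRNA there, starved over unstressed with 1 count added, was 0.59 (0.45 to 0.74, 351 of 536 higher) for A and C and -0.20 (-0.45 to -0.03, 243 higher) for G and U, so for G and U the sign depended on the measure.

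To follow this mRNA by mRNA, the density in the last 60 nt over that in the first 90 nt of the window was taken in each library, a contrast chosen after the profile had been seen. Starved over unstressed, this contrast had a median log2 of 0.86 (0.77 to 0.95) over the 432 mRNAs with at least 40 window stops in both libraries together. In 269 of them (62.3%) it was at least 1.5-fold higher, against 22% of 5385 other 150-nt windows of the same mRNAs with the same minimum. In 28 (6.48%) it was at least 1.5-fold lower, against 21.9% of the other windows. In 17 of the 432 neither library had a listed stop in the last 60 nt, so that the added count alone set the contrast. These held 12 of the 28 lower and 3 of the 269 higher mRNAs, and the median over the other 415 was 0.88 (0.79 to 0.99). The other windows had a median of 0.00 (-0.02 to 0.03), and those inside the 3′ UTR 0.01. The size of this difference depended on positions with fewer than 3 stops: the median was 0.25 (0.18 to 0.34) if each unlisted position was counted as 1 stop, and 0.44 if the unlisted stops of an mRNA were spread evenly. The windows at least 1.5-fold higher were then 33.4% against 8.42% of other windows, and 42.7% against 13.2%. The unstressed library was the shallowest, with 12999691 listed stops in all against 24014417 in starved cells, and with the DMS libraries thinned to the listed total of the smallest the median was 0.83.

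**Figure D2:**
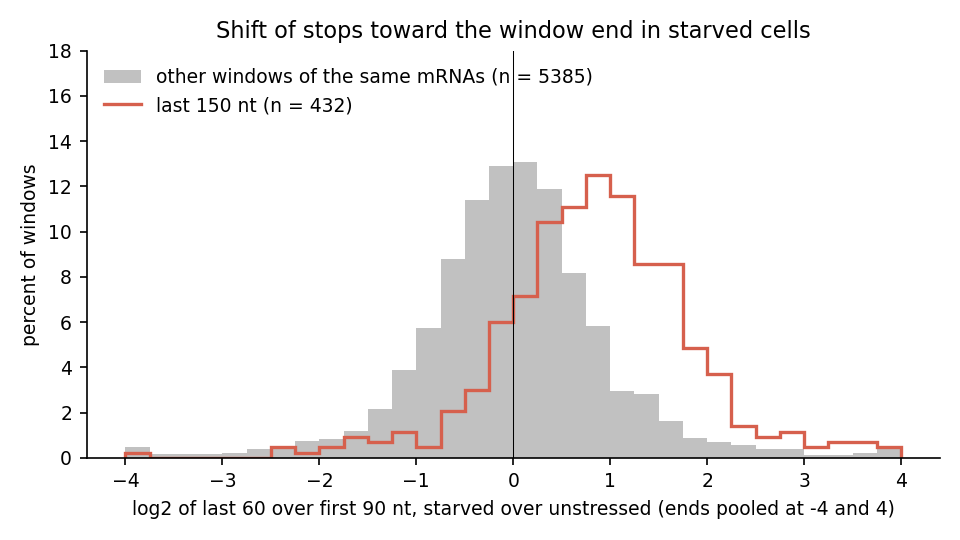
Histogram of the log2 contrast (last 60 nt over first 90 nt, starved over unstressed; x axis) as percent of windows (y axis) for the 432 end windows and the 5385 other windows of the same mRNAs. The end windows centre on 0.86 and the other windows on 0.00.

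In plain shares, the last 60 nt held a median of 17.6% (16.3 to 18.9%) of the window's stops in unstressed cells and 28.3% (26.9 to 29.4%) in starved cells. The corresponding medians were 29.5% and 28.6% without DMS (labelled K+ and Na+), 26.2% in vitro in K+ and 27.2% in Li+. The unstressed library was thus the one that stood apart. The share was higher in starved cells in 361 of the 432 mRNAs (83.6%, against 49.7% of the 5385 other windows), 2 of which had no window stop in one of the libraries. The exact 95% binomial intervals lay apart, with the starved share higher, in 268 of the 432 (62.04%, against 17.5% of the other windows). They lay apart in the opposite direction in 6 of the 432 (1.39%, against 17.6%). These were CMPK1, DAD1, MRPL33, POLR2K, SARS1 and SELENOF, named after their values were seen.

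**Figure D3:**
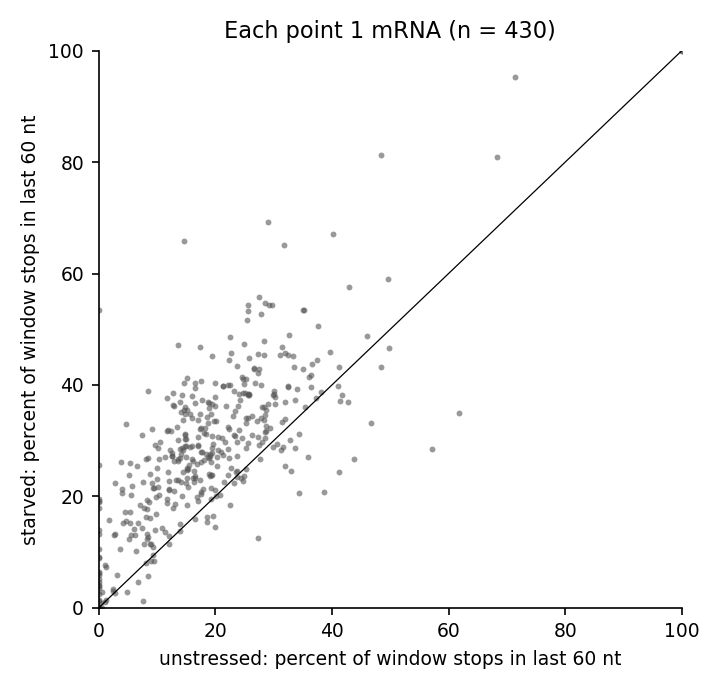
Percent of window stops in the last 60 nt in starved (y axis) against unstressed cells (x axis), 1 point per mRNA, for the 430 mRNAs with at least 40 in vivo window stops and stops in both libraries; the line marks equal shares. Most points lie above the line, as counted in the text (361 of 432 higher in starved cells).

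The 8 mRNAs with the most in vivo window stops showed the shift to different degrees. ACTB, cytoplasmic β-actin, had 12962 window stops unstressed and 5127 starved, of which the last 60 nt held 12.3% (11.7 to 12.8%) and 28.3% (27.1 to 29.6%). In the other libraries the ACTB share was 23.7% and 26.7% without DMS and 19.02% and 19.6% in vitro. The unstressed value was thus the lowest of the 6 and the starved value the highest. ENO1, the glycolytic enzyme enolase, had 18.8% of 10887 stops in unstressed and 33.1% of 7236 in starved cells, beside 34.6% and 32.6% without DMS and 28.4% and 31.1% in vitro. Its whole-window density was nearly equal, 3.55 and 3.57.

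HSP90AB1, a constitutive cytosolic chaperone, had the lowest shares of the 8, 6.29% of 9437 stops in unstressed and 13.1% of 6633 in starved cells, with 18.2%, 16.5%, 16.6% and 19.8% in the libraries without DMS and in vitro. HSPA8, the constitutive Hsc70 chaperone, had 23.8% of 5252 stops and 29.8% of 15165. Here the starved share was close to that in vitro in K+ (29.9%) and below those in vitro in Li+ (35.4%) and without DMS (33.6% and 33.0%). VIM, the intermediate filament protein vimentin, had 25.6% of 9931 stops in unstressed and 34.1% of 14782 in starved cells, beside 34.2% and 34.5% without DMS and 27.4% and 25.8% in vitro.

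PTMA, the acidic nuclear protein prothymosin α, had 27.9% of 16849 stops in unstressed and 39.9% of 19786 in starved cells, and 37.6 to 39.6% in the 4 other libraries. TMSB4X, the actin monomer-binding thymosin β4, had 24.0% of 5500 and 31.9% of 22765, and 32.0 to 38.0% in the other libraries. H2AZ1, the histone variant H2A.Z, was the exception: 23.6% (22.5 to 24.7%) of 5775 stops against 24.3% (23.7 to 24.9%) of 18320, intervals that overlap, with 26.8 to 27.9% elsewhere. In 7 of the 8 mRNAs the unstressed and starved intervals lay apart, and in all 8 the unstressed share was the lowest of the 6 libraries.

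**Figure D4:**
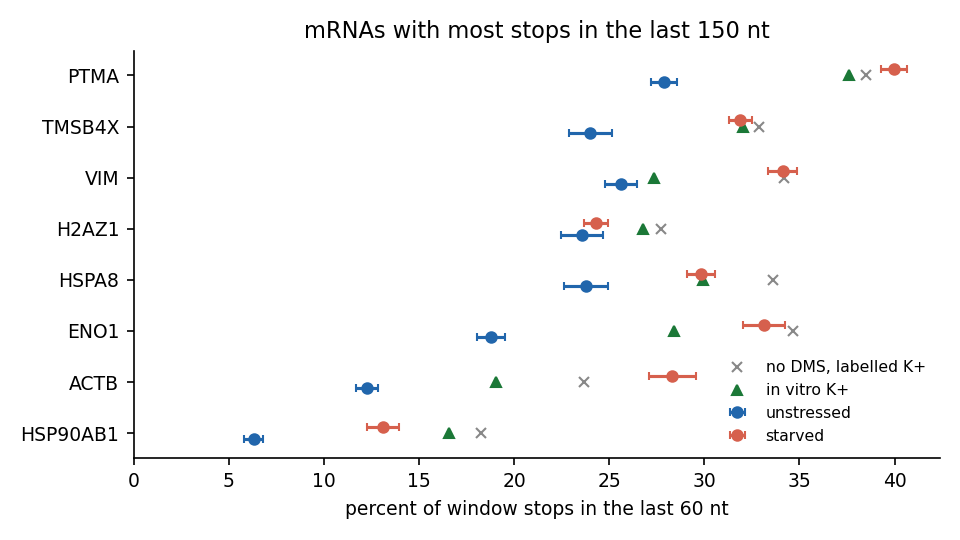
Percent of window stops that fell in the last 60 nt (x axis) for the 8 mRNAs with most in vivo window stops (y axis) in unstressed and starved cells (circles, bars are exact 95% binomial intervals), in vitro in K+ (triangles) and without DMS in the library labelled K+ (crosses). Unstressed cells lie lowest in each mRNA, and the unstressed and starved bars overlap for H2AZ1 only.

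Functional groups were described with the same contrast, beside 364 of 432 above 0, 269 (62.3%) at least 1.5-fold higher, 28 (6.48%) at least 1.5-fold lower and a median of 0.86 for all members. The lists hold few members each, and nothing particular to a list is read from its counts. Of 14 translation factor mRNAs in the list, 11 had enough stops, 7 were above 0 and 5 at least 1.5-fold higher (median 0.49). EIF3J, an eIF3 subunit outside the list, was at least 1.5-fold lower, with 38.7% of 31 window stops unstressed and 20.8% of 202 starved. EIF3B, a subunit of the eIF3 initiation complex, went from 9.06% of 1622 window stops to 32.0% of 593, and EIF4EBP1, the eIF4E-binding repressor controlled by mTOR, from 16.5% of 553 to 36.8% of 413. EIF4H, a cofactor of the eIF4A helicase, had 22.6% of 1196 and 18.5% of 2044. Among 4 poly(A)-binding and decay factor mRNAs all 4 were above 0 and 3 at least 1.5-fold higher (median 0.99). PABPC1, the major cytoplasmic poly(A)-binding protein, had 16.0% of 5552 stops in unstressed and 26.7% of 6286 in starved cells, and PABPC4, its relative, 14.1% of 1006 and 27.6% of 1038. ZFP36L1, which recruits deadenylases to AU-rich mRNAs, had 17.1% of 820 and 29.2% of 1445.

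All 5 glycolytic mRNAs with enough stops were above 0, 4 of them at least 1.5-fold higher (median 0.94). PGAM1, phosphoglycerate mutase, had 68.3% of 1845 stops and 81.0% of 2254, and PKM, pyruvate kinase, 19.1% of 8719 and 23.8% of 3305. Of 10 cytosolic chaperone mRNAs 8 were above 0, 5 of them at least 1.5-fold higher (median 0.79), and 1, CCT4, was 1.5-fold or more lower but had no listed stop in the last 60 nt in either library. CCT2 and CCT3, subunits of the TRiC chaperonin, went in opposite directions, from 14.9% of 1456 to 28.99% of 5237 and from 19.6% of 2094 to 16.5% of 2707. Of 6 endoplasmic reticulum folding mRNAs 5 were at least 1.5-fold higher (median 0.93). CALR, the lectin chaperone calreticulin, had 25.6% of 2356 and 54.3% of 1192. Of 11 cytoskeletal mRNAs 7 were above 0, 6 of them at least 1.5-fold higher (median 0.64). TUBB, a β-tubulin, had 28.3% of 5896 and 45.4% of 7566. TPM2, a tropomyosin, was 1.5-fold or more lower, with 9 of 33 window stops and 3 of 24. Reads that match near-identical copies were not kept in the authors' alignment, so members of multigene families such as the tubulins and actins are counted only where their sequence is unique.

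Of 8 oxidative phosphorylation mRNAs only 3 had enough stops, and none was above 0. COX7A2, a subunit of cytochrome c oxidase, was 1.5-fold or more lower but had no listed stop in the last 60 nt in either library. ATP5MG, a subunit of ATP synthase, had 0 of 3 window stops there in unstressed and 7 of 39 in starved cells. Its share thus rose, and its contrast was not above 0 only because of the added count. SDHD, a subunit of succinate dehydrogenase, had 9.38% of 544 and 9.50% of 3537, a nearly equal share, and its contrast, which also divides by the same-base means, was 0.978-fold. No cleavage and polyadenylation factor mRNA and no amino acid response mRNA of the lists was a member, and of the study's genes (APP, APH1A, HIRA, LMNB1, CDKN1B and ACTB) only ACTB was. The remaining lists held 1 or 2 members each, among them 2 listed ribosomal protein mRNAs that went in opposite directions (median 0.14), RPL13A with 27.5% of 1559 and 42.8% of 4042 and RPL22 with 6.78% of 59 and 4.65% of 215. RPL23A, a ribosomal protein mRNA outside the list, had 15.1% of 179 and 18.4% of 413, a contrast of 1.31-fold. The other lists included GABARAPL2, an autophagosome protein, with 4.61% of 434 and 15.5% of 573, and ID1, a serum-responsive transcriptional inhibitor, with 21.4% of 3047 and 22.6% of 1147.

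Among the kinds of signal the contrast was highest with AAUAAA, with wide intervals in the smaller groups. Its median was 0.91 (0.81 to 1.00) with AAUAAA (310 mRNAs), 0.59 (0.40 to 0.95) with AUUAAA (54) and 0.76 (0.30 to 1.22) with neither (68), intervals that overlap. It was 0.78, 0.85 and 0.93 from the shortest to the longest 3′ UTRs in groups of 144 mRNAs, again with overlapping intervals. By the A and U content of the window it was 1.06 (0.94 to 1.20) in the group of lowest content (up to 59.3%) and 0.74 (0.57 to 0.91) in that of highest content, intervals that do not overlap. By the A content of the last 60 nt alone it ran the other way, 0.68 (0.49 to 0.81) in the group of lowest content and 0.99 (0.88 to 1.17) in that of highest content, again without overlap. By depth it was 0.94, 0.92 and 0.79 from fewest to most stops, and in the 291 mRNAs with at least 1000 in vivo window stops it was 0.85.

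Against RNA refolded in vitro in K+, the window was denser in unstressed cells, and less so in its last 60 nt. This comparison shares the unstressed library with the one above. For A and C, where the DMS adduct itself stops RT, the window density had a median log2 ratio of 0.53 (0.49 to 0.62, n = 536). It was 0.65 for nt 61 to 150 and 0.21 for the last 60 nt, and 0.30 in the interior 3′ UTR. The density over all bases was at least 1.5-fold higher in 200 of 420 windows (47.6%), against 12.4% of the 5577 other windows, and at least 1.5-fold lower in 5 (1.19%), against 40.5%. Windows inside the 3′ UTR lay between, with 29.6% of 1803 higher and 13.3% lower. The last 60 over first 90 nt contrast was at least 1.5-fold lower in unstressed cells in 220 of the 420 mRNAs (52.4%, background 16.1%) and higher in 15 (3.57%, background 22%), with a median of -0.61 (-0.69 to -0.54). This median was -0.20 with each unlisted position counted as 1 stop and -0.33 with the unlisted stops spread evenly. For starved cells against in vitro K+ the median was 0.23 (0.17 to 0.27), with 90 of 431 at least 1.5-fold higher (20.9%, background 13.1%) and 28 lower (6.50%, background 7.99%). In vitro K+ itself lay below the library without DMS labelled K+ by a median of -0.37 (-0.42 to -0.31), at least 1.5-fold lower in 151 of 430 (35.1%, background 10.1%) and higher in 40 (9.30%, background 9.63%). Against the library labelled Na+, given too because the names of the deposited files exchange the cations of these 2 libraries, the median was -0.33 (-0.40 to -0.26), with 130 of 425 lower (30.6%, background 10.1%) and 40 higher (9.41%, background 10.6%).

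The refolding cation changed the whole-window density little. The median log2 ratio of in vitro K+ over Li+ was -0.05 (-0.06 to -0.03) for the window density, and 2 of 426 windows were at least 1.5-fold higher (0.469%, background 0.195%) and 11 lower (2.58%, background 1.61%). For the last 60 over first 90 nt contrast the median was -0.08 (-0.11 to -0.06), with 29 of 426 at least 1.5-fold higher (6.81%, background 3.76%) and 35 lower (8.22%, background 3.76%). The sign of the window median changed under 4 alternatives, so no direction is given. By mean ratio, K+ lay lower toward the end. The mean ratio in K+ over Li+ was 0.907 to 0.962 per bin from 150 to 41 nt, 0.869 at 31 to 40 nt, 0.815 at 21 to 30 nt and 0.758 at 11 to 20 nt. With pooled counts it was 0.958 to 1.00, then 0.930, 0.872 and 0.822. The K+ library listed fewer window positions, 35.3% against 41.0% in Li+, and these bins were not recomputed under the alternatives. At U of the last 30 nt the mean ratio was 0.161 in K+ and 0.2504 in Li+. At the A of AAUAAA, pooled, K+ over Li+ was -0.19 on the log2 scale at the end and -0.03 inside the 3′ UTR, a difference of -0.17 (-0.21 to -0.12, counting error only), and for AUUAAA the difference was -0.30 (-0.44 to -0.16).

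The total density of the window also changed little with starvation. The median log2 ratio of starved over unstressed cells was 0.17 (0.13 to 0.24) over all 536 mRNAs, and -0.01 (-0.03 to 0.00) in the interior 3′ UTR of the 410 with at least 150 nt there. It was 0.17 (0.11 to 0.21) for A and C and 0.38 (0.30 to 0.43) for G and U, the latter beside 0.38 (0.30 to 0.45) for G and U in the interior 3′ UTR. With unlisted positions counted as 1 the value for all bases was -0.01 and that for G and U -0.31. Of 432 windows 83 (19.2%) were at least 1.5-fold higher, against 17.9% of the other windows, and 7 (1.62%) at least 1.5-fold lower, against 12%. The share that was higher was 6.16% against 2.49% of other windows with unlisted positions counted as 1, 10.96% against 5.92% with unlisted stops spread evenly, 11.9% against 9.77% with thinned libraries and 32.4% against 20.4% with the mean over the interior 3′ UTR.

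The largest single rises and falls of the whole window came, with 1 exception, from windows below the mean density of their mRNA in both libraries. FKBP3, an FK506-binding prolyl isomerase, had 110 listed window stops in starved and 0 in unstressed cells, beside 6 to 36 in the other libraries. No fold is given, since each unlisted position can hold up to 2 stops. BCCIP, which binds BRCA2 and p21, had 121 and 3, RABGGTB, a subunit of Rab geranylgeranyl transferase, 133 and 7, and SRP14, a signal recognition particle protein, 257 and 19, with densities of 0.0897 to 0.138 in starved cells. EIF3J, an eIF3 subunit, had 202 and 31 (densities 0.431 and 0.102). Only MCM4, a subunit of the replicative helicase, reached its own mean in starved cells, with 295 stops at a density of 1.16 against 65 at 0.246 in unstressed cells and 0.297 to 0.438 in the other libraries.

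Among the falls, GLRX5, a mitochondrial iron-sulfur cluster protein, had 210 window stops at a density of 0.638 in unstressed and 96 at 0.312 in starved cells, beside 0.314 to 0.424 elsewhere. XRCC5, the Ku80 subunit of the DNA end-binding complex, had densities of 0.417 and 0.249, beside 0.0647 to 0.119. In both the unstressed density was the highest of the 6 libraries. These mRNAs were chosen for a large fall from unstressed to starved cells, so nothing further is read from this. SNRPE, a spliceosomal Sm protein, RPL23A, a ribosomal protein, TIMM10, a mitochondrial import chaperone, and HSP90AA1, the inducible HSP90, had densities of 0.0468 to 0.155 in unstressed and 0.0259 to 0.0997 in starved cells. The sites of 8 of these 12 mRNAs are shown to place their windows.
FKBP3 (chr14:45584804-45584833, minus strand): ugauccccccaaAAUAAAuucauaaacaau
BCCIP (chr10:127542230-127542259, plus strand): agaaaaaauacuAUUAAAgaugacuaucac
RABGGTB (chr1:76260731-76260760, plus strand): aaugaugcacaaAAUAAAuggcuguugaaa
EIF3J (chr15:44854967-44854996, plus strand): guguaaauaauaAUUAAAuuucuuugaaac
SNRPE (chr1:203840242-203840271, plus strand): auuauguuuugaAAUAAAgggcugcauuag
GLRX5 (chr14:96011021-96011050, plus strand): ucauauucuucuAUUAAAuuugccacaaga
XRCC5 (chr2:217070972-217071001, plus strand): uguacauguaacAUUAAAggcauaaaugac
RPL23A (chr17:27051338-27051367, plus strand): caccccuugcccAAUAAAggacaaggacuu

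At the signal itself, the 5 A of the AAUAAA in the 356 mRNAs with it at the end were compared with the 5 A of 420 AAUAAA inside the 3′ UTRs of the same set. Pooled over sites, unstressed over in vitro K+ was 0.17 on the log2 scale at the end and -0.05 inside, a difference of 0.23 (0.17 to 0.28, counting error only; 10059 and 12554 stops at the end, 9000 and 15226 inside). For AUUAAA the difference was 0.21 (0.04 to 0.37). Starved over unstressed was 0.53 at the end and 0.24 inside, a difference of 0.29 (0.24 to 0.34). In vitro K+ over the library without DMS was -0.37 at the end and -0.15 inside for that labelled K+, and -0.32 and -0.15 for that labelled Na+. Pooled counts weight mRNAs by depth, and the mean ratio per A gave other sizes. By it, unstressed over in vitro K+ was -0.01 at the end and -0.04 inside, a difference of 0.03, and for AUUAAA the difference was -0.09. The excess of unstressed cells at the end signal was thus not present with sites weighted equally. Starved over unstressed was 1.02 and 0.34 by mean ratio, a difference of 0.68.

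Around the signal the fall in unstressed cells began upstream of the hexamer. At A positions 43 to 48 nt upstream of the first base the mean ratio was 1.88 in unstressed and 2.04 in starved cells at the end, and 1.72 and 1.69 inside. At 7 to 12 nt upstream it was 0.62 and 1.39 at the end, and 0.65 and 1.29 inside. The libraries without DMS were at 1.01 and 0.95 there at the end, and at 1.11 and 1.02 inside. In vitro K+ and Li+ were at 0.67 and 0.74 there at the end, from 1.18 and 1.16 at 43 to 48 nt. Inside they were at 0.81 and 0.86, from 1.18 and 1.19. The dip before an AAUAAA in unstressed cells was thus present at interior copies as well as at the mRNA end. It was not particular to them, since refolded RNA dipped too, to less low values. Past the hexamer the ratio in unstressed cells went to 0.00 at the end and stayed at 0.62 to 0.73 inside.

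**Figure D5:**
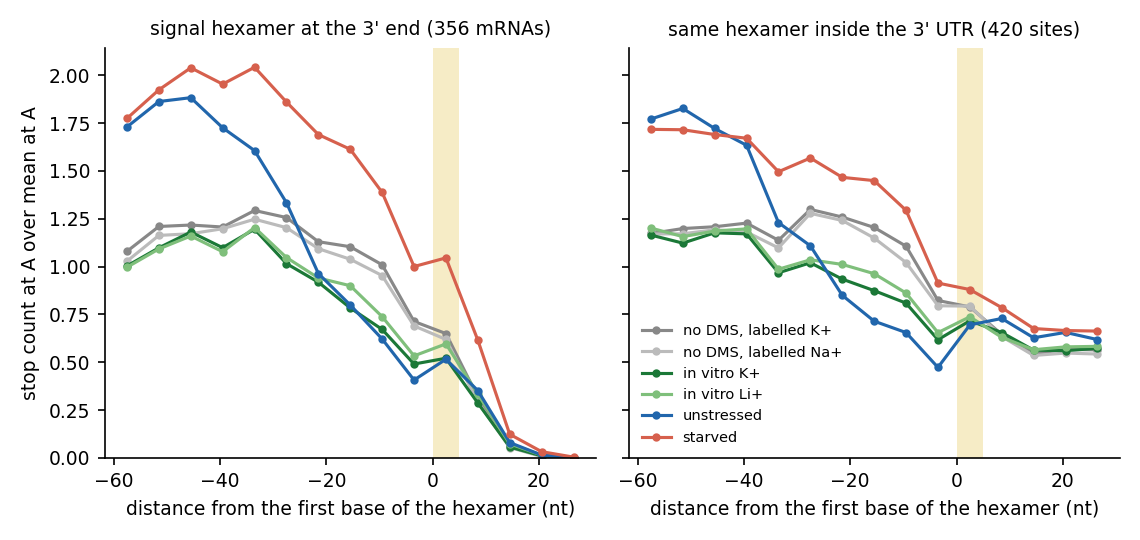
Mean ratio of stop counts at A (y axis) by distance from the first base of AAUAAA in 6-nt bins (x axis; shaded, the hexamer), for 356 signals at the 3′ end (left) and 420 copies inside the 3′ UTR (right), 1 line per library. In both panels unstressed cells fall below every other library just before the hexamer, to 0.41 at the end and 0.47 inside in the bin next to it.

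An interior AAUAAA can itself serve as a polyadenylation signal, so 220 of the 420 interior copies were divided, after their values were seen, by the density of stops past them without DMS (10 to 100 nt past the place where the end would lie, over the 90 nt upstream). The other 200 lay too near the ends of the 3′ UTR or had under 100 stops upstream without DMS. Where it fell to at most 0.5 of the upstream density (114 sites), the starved over unstressed contrast placed as at a true end had a median log2 of 0.71 (0.51 to 0.84). Where it stayed at 0.8 or more (74 sites with enough stops) the median was 0.53 (0.41 to 0.64), and 59 of the 74 were above 0. At the 31 sites between, it was 0.38 (0.08 to 0.88). All 3 intervals lay above the median of 0.00 for other windows. The 114, 75 (before the minimum of stops) and 31 sites lay in 83, 54 and 28 genes. Sites that share an mRNA are not replicates, but the intervals treat all sites as separate.

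Single strong stops, with at least 10 stops and a ratio of at least 10, were more frequent in living cells, in these windows and elsewhere. There were 457 such positions in unstressed and 389 in starved cells, against 80 and 79 in vitro and 51 and 97 without DMS (labelled K+ and Na+). This was 0.569% of window positions in unstressed and 0.484% in starved cells, against 0.313% and 0.215% of all other positions of the same mRNAs. In the 4 other libraries it was 0.0634% to 0.121% in the windows and 0.136% to 0.178% elsewhere. The requirement of 10 stops depends on depth, and the windows held different shares of the stops of their mRNAs in the libraries. Of these, 41 in unstressed and 113 in starved cells lay in the last 60 nt. Both in vivo libraries shared 148 positions in 61 genes. ACTB had a C at 128 nt before the end with 1128 stops in unstressed cells (ratio 29.8) and 336 in starved cells (36.2), and ratios of 10.99 to 15.2 in the 4 other libraries. In PABPC1 an A at 109 nt had ratios of 24.5 and 10.8 in unstressed and starved cells, 13.2 and 12.02 in vitro and 3.7 in both libraries without DMS.

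The libraries without DMS differed from each other at guanines. Among 1981 window positions with at least 100 stops over both, 34 in 15 genes had a ratio in the library labelled Na+ that was 5 or more times that in the other (1.72%, against 1.54% of 18762 other positions of the same mRNAs). All 34 were G (34 of 432 G positions, 7.87%), none of the 688 A, 277 C and 584 U positions was, and none was 5-fold lower. In the rest of the same mRNAs 289 of 4802 G positions (6.02%) were, a share near that in the windows. In genes with a position of at least 500 stops in the library labelled Na+, the strongest position closed a G-rich stretch. The following stretches, shown because they carry this difference, end at the stop position in capitals and hold 3 to 5 runs of 3 or more G.
STIP1 (chr11:63971898-63971927, plus strand): gcagugggcauguuauggggaggggagggG
TAGLN2 (chr1:159887972-159888001, minus strand): gggguggggugaggggauggagagggaggG
AHSA1 (chr14:77935735-77935764, plus strand): gcauguuuucugcuggguggguucagaggG
TNFRSF12A (chr16:3072321-3072350, plus strand): uuuauuuuggggagaguuuggaggggaggG
CLTA (chr9:36211954-36211983, plus strand): ggagggagaggaggaagaggaaggggaggG
DHRS2 (chr14:24114670-24114699, plus strand): acaugugggguucuuggugugggucugggG

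At STIP1, which encodes the HSP70 and HSP90 adaptor HOP, the G at 89 nt before the end had 75 stops in the library labelled K+ and 2605 in that labelled Na+, 99 and 103 in vitro in K+ and Li+, 59 in unstressed and 73 in starved cells. The ratios were 6.69 and 141, 22.3 and 18.9, 22.7 and 35.5. The library labelled Na+ stood far above the rest. TAGLN2, the actin-binding transgelin-2, had 58 and 2205 stops without DMS at 72 nt, 171 and 206 in vitro, 104 in unstressed and 134 in starved cells. AHSA1, an activator of the HSP90 ATPase, had 9 and 845 at 52 nt. K+ is known to stabilise G-quadruplexes more than Na+, and these stops were strong in the library labelled Na+. The names of the deposited files give these 2 cations the other way round from the labels. In the windows and the rest of the same mRNAs together, the positions that were 5-fold or more higher in the library labelled Na+ were these 34 and 289 G, with no A, C or U. Positions at least 5-fold lower were 2 G and 5 A, all outside the windows. Whether the labels or the file names are right was not tested, and the labels are kept here as names of the libraries.

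At the 34 G positions, which were chosen without the DMS libraries, starved over unstressed cells had a median log2 of 0.72 (0.47 to 1.17) and 29 were higher in starved cells (946 and 558 stops). At the 398 other G positions with as many stops it was 0.20 (0.12 to 0.29), with 247 higher. With counts pooled the others went the opposite way, a ratio of 3.38 in starved against 3.89 in unstressed cells, whereas the 34 had 7.86 against 4.63. The 34 positions share 15 mRNAs and neighbour each other, and are not replicates. In vitro K+ over Li+ was 0.00 (-0.22 to 0.29) at the 34 and -0.02 (-0.10 to 0.02) at the others. Among the 6 sites printed, the unstressed and starved ratios lay farthest apart in fold at CLTA, which encodes a clathrin light chain (3.57 and 9.94, with 9 and 40 stops), and least at STIP1 (22.7 and 35.5, with 59 and 73).

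What else bears on the last nucleotides is the reference used for alignment. The deposited means and counts together bound the number of bases of each reference transcript, closely enough in 11 members to count bases past the annotated end. The bounds were 32.1 to 32.9 extra bases for TMSB4X, 22.6 to 24.2 for TUBB, 19.4 to 24.2 for PTMA, 9.92 to 12.5 for HSPA8 and 4.78 to 7.29 for H2AZ1, and they spanned 0 for TAGLN2 and ANXA1. The last listed stop without DMS lay 6, 14, 10, 16 and 19 nt before the annotated end in the first 5, and 28 and 27 nt before it in the last 2. CALM2 differed, with 7.98 to 14.2 extra bases and a last stop at 39 nt. The other 3 members, CKS2, CHCHD2 and HSPD1, had 13.3 to 22.2 extra bases and last stops at 15, 11 and 14 nt. The part of this in the fall over the last 30 nt was not tested.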

How the data were processed

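Stops of reverse transcription on U2OS poly(A)+ RNA were analysed in 6 libraries, 1 per condition. By the labels and the study's methods, the authors collapsed duplicates, cut off adapter and barcode sequence and aligned reads of 20 to 45 nt cDNA from RNA fragments of 60 to 80 nt to an hg19 transcriptome with Bowtie (version not given in the sources used here), keeping unique matches without mismatch. The deposited counts are stops per nucleotide, listed from 3 upward. The deposited ratio divides each count by the transcript's mean for that base; this mean was recovered as summed counts over summed ratios, and it includes stops at unlisted positions. Columns of other samples numbered 0.

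RefSeq transcripts were matched to GENCODE release 44 on GRCh37 by sequence, keeping ends that fitted the base numbers implied by the deposited values and allowing only A past the end. Density is summed counts over summed means, with 1 count added in log2 ratios. Medians carry order-statistic 95% intervals. Shares of stops carry exact (Clopper-Pearson) binomial intervals. Binomial intervals and those of pooled stops cover counting error only, and intervals of medians the spread over mRNAs only. With 1 library per condition no p-value is given. Genes named by rule were the 8 members with most in vivo window stops, the 6 largest and the 6 smallest changes of window density in starved cells among windows with at least 100 stops, and the study's genes. The members, gene lists and contrasts were chosen with earlier results of these data known. The contrast of the last 60 nt and the comparison of single positions were added after the data were seen. Alternatives covered the transcript minimum, unlisted positions, the mean, single high positions, the signal, short 3′ UTRs and depth. Scripts were tested on simulated data and run in Python (3.11.15) with scipy (1.17.1), matplotlib (3.10.9), pandas (2.3.3) and numpy (2.4.6). Motifs were searched on the mRNA strand only, overlaps counted once per window. Some of the G-rich positions with at least 500 stops are not reported here.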

Additional observations from a re-analysis of the deposited data

How the results depend on the processing

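Of 161 recomputed values of 12 results, 110 stayed within the interval (or, for percentages, 1.5 times) of the reported value, 43 moved and 8 changed sign. The shift toward the last 60 nt in starved cells kept its direction under every alternative run (0.25 to 0.92 on the log2 scale). With unlisted positions counted as 1, the density of the last 50 nt without DMS was -0.55, starved over unstressed -0.0069 for all bases, 0.052 for A and C and -0.31 for G and U, in vitro K+ over Li+ 0.069, windows at least 1.5-fold higher 6.16%, the last 60 nt contrast 0.25 with 33.4% of windows called, and unstressed over in vitro K+ -0.20. With the unlisted stops spread evenly the same values were -0.68, 0.094, 0.089, 0.028, 0.029, 10.96%, 0.44 and, for unstressed over in vitro K+, -0.33. In windows of at least 1000 stops the density of the last 50 nt was -1.003 and G and U 0.47; with unlisted positions as 1 as well, all bases gave 0.13, G and U -0.057, K+ over Li+ 0.0026, called windows 7.90%, and the contrasts 0.56 and -0.44. A transcript minimum of 3 gave -1.03 for the last 50 nt, 0.44 for A and C in unstressed over in vitro K+, 0.75 for the contrast and 0.626% of positions higher in the library labelled Na+; a minimum of 0.25 gave 0.23 for A and C starved over unstressed, 0.68 for A and C unstressed over in vitro K+, -0.064 for K+ over Li+, 0.35 for the signal at the end against inside and 4.77% of positions. The mean of listed counts gave -0.075 for G and U and 0.0062 for K+ over Li+. The mean over the interior 3′ UTR gave 0.28 for all bases, 0.28 for A and C, 0.043 for G and U, 0.23 for A and C unstressed over in vitro K+, 0.15 for the signal and 32.4% of windows. Limiting each position to 10 times its mean, which bounds such positions by construction, left 0.407% of positions. Keeping shorter 3′ UTRs gave 0.43 for A and C unstressed over in vitro K+ and 0.14 for the signal. Thinning gave 0.082 for all bases, 0.12 for G and U and 11.9% of windows. Members whose last stop lay within 40 nt of the end gave 0.47 for G and U, -0.064 for K+ over Li+ and 0.17 for the signal. Beyond what these constructions fix, the cause was not tested. The alternatives of spread stops, of 1000 stops and of the last stop were added after the data were seen. No paired analysis was possible because each condition has 1 library.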
